A study of Mus musculus with 24 samples.

Results

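The 10 gene rows followed through both deposited count tables were Mettl7b and its neighbour Itga7, St3gal6 and Dcbld2, Ap3m1 and Vcl, Iah1 and Adam17, and Ercc2 and Ppp1r13l. These 10 rows, of 57010 in each table, form 5 pairs of neighbouring genes. They were chosen as pairs labelled as having swapped counts, meaning a different higher row in each of the 2 experiments. The order of the counts within a pair is therefore given as a description. The same holds for the changes between cell lines and fractions that led to the choice of Mettl7b, St3gal6, Ap3m1, Iah1 and Ercc2.

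The study measured RNA in GT1-7 cells, immortalised mouse neurons of the hypothalamus that secrete gonadotropin-releasing hormone (GnRH), with CEL-seq2, a method that counts the 3′ ends of polyadenylated RNAs. In the fractionation experiment, cytoplasmic and total RNA came from Mkrn3ox cells, which stably express GFP-Mkrn3 per the series' design text, and from wt cells. In the RNA immunoprecipitation (RIP) experiment, cells received 6 µg of GFP-Mkrn3 or GFP plasmid, were lysed after 24 h, and gave a GFP-trap pull-down (IP) and an input made of 5% of the lysate. Each of the 8 groups held 3 libraries, 24 in all, and nothing in the labels says that they came from separate cultures, so p-values measure the spread between these libraries, which may be technical. Mkrn3 is a makorin RING-finger protein that binds RNA. All Mkrn3ox libraries come from what the labels give as 1 line, with no independent clone named.

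A gene row counts the reads that fall on 1 annotated gene. Where the 3′ ends of 2 genes on opposite strands lie on top of each other, 3′ reads fall in a stretch that both annotations cover, and the assignment of a read then rests on its strand. The sources used here do not give the strand setting of the counting. A value below is therefore a value of the row, and which of the 2 transcripts gave its reads was not tested.

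The genes have diverse roles, and Itga7 and Vcl both belong to cell adhesion. Mettl7b encodes a methyltransferase-like protein of the endoplasmic reticulum and lipid droplets, and Itga7 the integrin alpha 7 chain, a laminin receptor. St3gal6 encodes a sialyltransferase of the Golgi, and Dcbld2 a membrane protein of the neuropilin-like family. Ap3m1 encodes the mu subunit of the AP-3 adaptor, which sorts cargo from endosomes to lysosome-related organelles and synaptic vesicles. Vcl encodes vinculin, which ties integrin and cadherin adhesions to actin. Iah1 encodes an esterase homologue, and Adam17 the metalloprotease that sheds tumour necrosis factor and growth factor precursors. Ercc2 encodes the XPD helicase of the TFIIH transcription and repair complex, and Ppp1r13l encodes iASPP, an inhibitor of p53.

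In the RefSeq annotation of GRCm38 the label of overlapping genes held for 4 of the 5 pairs. Mettl7b (ENSMUSG00000025347, chr10:128958277-128960988, minus strand) and Itga7 (ENSMUSG00000025348, chr10:128933421-128958286, strand not in the table used) share 10 bases. St3gal6 (ENSMUSG00000022747, chr16:58469742-58524260, minus) and Dcbld2 (ENSMUSG00000035107, chr16:58408535-58469745, plus) share 4 bases. Ap3m1 (ENSMUSG00000021824, chr14:21033106-21052553, minus) and Vcl (ENSMUSG00000021823, chr14:20929383-21033676, plus) share 571 bases. Iah1 (ENSMUSG00000062054, chr12:21316362-21323607, plus) and Adam17 (ENSMUSG00000052593, chr12:21323509-21373632, minus) share 99 bases. The 3 of these pairs with both strands known lie tail to tail, so the shared bases are at the 3′ end of both genes. Ercc2 (ENSMUSG00000030400, chr7:19382017-19395694, plus) and Ppp1r13l (ENSMUSG00000040734, chr7:19359724-19378540, plus) do not overlap in this annotation. They lie on the same strand with 3476 bases between them. Klc3, on the minus strand, shares 1255 bases with Ercc2 and had 18 counts over the 6 total RNA libraries and 19 over the 6 RIP inputs. Mir343, which lies within Ercc2, shares 75 bases and had 0 and 2 counts.

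The start sites of a tail-to-tail pair are far apart, at the outer ends of the pair. The promoters of Vcl and Ap3m1, whose rows were both lower in Mkrn3ox cytoplasm, and of Iah1 and Adam17, whose rows went opposite ways there, are printed to show what each gene carries at its own start. A promoter entry was found for 9 of the 10 genes, all but Itga7. The sequences run 5′ to 3′ on the strand of the gene, from 250 bases before to 50 bases after the start (RefSeq, GRCm38.p6), and capitals mark the motifs searched on either strand. They are the GC box with the letters GGGCGG, the box named for its letters CCAAT, the TATA box in the form TATAAA, and the CArG box of serum response factor.
Vcl, chr14:20929148-20929447, plus strand: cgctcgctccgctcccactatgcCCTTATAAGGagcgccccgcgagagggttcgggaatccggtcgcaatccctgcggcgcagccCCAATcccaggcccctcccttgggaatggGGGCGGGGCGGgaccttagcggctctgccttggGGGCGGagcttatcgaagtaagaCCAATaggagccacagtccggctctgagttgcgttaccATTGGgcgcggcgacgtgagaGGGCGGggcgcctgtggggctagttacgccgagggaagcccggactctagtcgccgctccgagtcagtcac
Ap3m1, chr14:21052393-21052692, minus strand: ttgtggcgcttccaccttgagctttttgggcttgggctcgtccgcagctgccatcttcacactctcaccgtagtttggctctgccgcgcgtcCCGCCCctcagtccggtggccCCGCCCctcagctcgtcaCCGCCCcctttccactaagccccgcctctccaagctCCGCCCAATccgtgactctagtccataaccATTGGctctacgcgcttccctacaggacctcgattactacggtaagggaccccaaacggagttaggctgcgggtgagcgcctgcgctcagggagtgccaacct
Iah1, chr12:21316142-21316441, plus strand: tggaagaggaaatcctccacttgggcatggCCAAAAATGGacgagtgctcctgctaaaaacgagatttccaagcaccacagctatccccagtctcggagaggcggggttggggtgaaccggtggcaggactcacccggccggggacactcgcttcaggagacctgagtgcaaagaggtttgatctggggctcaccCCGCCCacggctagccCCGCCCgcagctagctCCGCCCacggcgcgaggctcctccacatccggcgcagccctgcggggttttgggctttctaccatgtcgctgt
Adam17, chr12:21373583-21373882, minus strand: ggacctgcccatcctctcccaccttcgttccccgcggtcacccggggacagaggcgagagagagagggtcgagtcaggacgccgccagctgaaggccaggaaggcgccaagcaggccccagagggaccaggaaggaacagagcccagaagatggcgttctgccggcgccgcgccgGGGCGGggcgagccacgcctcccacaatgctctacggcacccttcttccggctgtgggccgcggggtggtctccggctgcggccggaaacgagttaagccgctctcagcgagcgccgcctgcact

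The Vcl window held 4 GC boxes, of which a pair share bases, 3 CCAAT boxes and 1 CArG box. The Ap3m1 window held 4 GC boxes and 2 CCAAT boxes, with 1 GC box and 1 CCAAT box sharing bases. This window also holds the annotated start of Adk (plus strand, chr14:21052574), so its motifs cannot be assigned to Ap3m1 alone. Iah1 had 3 GC boxes and 1 CArG box, and Adam17 had 1 GC box. None of these 4 windows held TATAAA. Of 32851 mouse promoters of the same length, 35.7% held a GC box, 37.4% a CCAAT box, 13.6% TATAAA and 1.63% a CArG box. A match describes the letters and is not evidence of a bound factor.

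The depth differed between the experiments. Fractionation libraries held 374386 to 759271 counts and RIP libraries 6254703 to 14575652. The Mkrn3 row had 0 to 5 counts in Mkrn3ox cytoplasm, 0 in Mkrn3ox total RNA, 0 to 1 in wt cytoplasm and 0 in wt total RNA, so these counts do not show the transgene in the libraries labelled Mkrn3ox. In the RIP table Mkrn3 had 86579 to 141568 counts in GFP-Mkrn3 IPs, 28280 to 32451 in GFP-Mkrn3 inputs, 33 to 60 in GFP IPs and 36 to 60 in GFP inputs. Of 12 markers of the GnRH neuronal line, 8 or 9 were detected per group, with summed levels of 404 to 1145 CPM (counts scaled to a common library total), while Gap43 had no count in either experiment, Snap25 had none in RIP and Chga none in fractionation. The 5 astrocyte markers summed to at most 13.9 CPM and the 6 oligodendrocyte markers to 2.22 to 18.5 CPM in any group. The 9 markers of fibroblasts, endothelium and immune cells summed to 318 to 932 CPM, lowest in Mkrn3ox cytoplasm and highest in GFP IPs, and their part in the results was not tested. CPM values are on the scale of the trimmed mean of M values (TMM), per row and not divided by transcript length.

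The order within 3 pairs was turned round in every library. Mettl7b had 11002 counts and Itga7 had 21 over the 12 fractionation libraries, so Mettl7b held 99.8% of the counts of the pair (99.4 to 100% by library). Over the 12 RIP libraries Mettl7b had 2 counts and Itga7 had 44587, a share of 0.00449% for Mettl7b. St3gal6 had 11187 counts and Dcbld2 had 391 in fractionation, a share of 96.6% (92.5 to 98.6%), against 2 and 29523 counts in RIP, a share of 0.00677%. Ap3m1 had 7904 counts and Vcl had 883 in fractionation, a share of 89.95% (86.2 to 93.6%), against 5816 and 153552 in RIP, a share of 3.65% (1.75 to 4.85%). Mettl7b and St3gal6 each had 0 counts over the 6 RIP inputs, which allows up to 0.0616 CPM, from 3 counts in 48685165.

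The remaining pairs were less uniform. Iah1 had 1256 counts and Adam17 had 1965 in fractionation, and 661 and 13686 in RIP, where Adam17 was higher in 12 of 12 libraries. In fractionation Iah1 was higher in 5 libraries, and these were all wt libraries. The share of Iah1 was 14.9% in Mkrn3ox cytoplasm (exact Clopper-Pearson 95% interval 12.5 to 17.7), 37.9% in Mkrn3ox total RNA (35.3 to 40.6), 61.7% in wt cytoplasm (57.0 to 66.2) and 53.3% in wt total RNA (49.4 to 57.2). The label of swapped counts therefore did not hold for this pair in Mkrn3ox cells, where Adam17 was higher in all 6 libraries as in RIP. It did not hold for the sum over the 12 fractionation libraries either. Ercc2 had 340 counts and Ppp1r13l had 12 in fractionation, with Ercc2 higher in 9 libraries, Ppp1r13l in 1 and 2 ties. Most of these counts came from Mkrn3ox cells, with 178 and 2 in cytoplasm and 144 and 3 in total RNA. The wt groups had 2 and 0 counts in cytoplasm and 16 and 7 in total RNA. The share of Ercc2 in wt total RNA was 69.6% (interval 47.1 to 86.8), so no clear order can be read in wt cells. In RIP Ercc2 and Ppp1r13l had 2044 and 3304 counts, a share of 38.2% for Ercc2, and Ppp1r13l was higher in 11 of 12 libraries. The exception was a GFP IP with 173 counts of Ercc2 and 169 of Ppp1r13l. Intervals and limits cover counting error only, since reads need not be separate molecules.

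**Figure D1:**
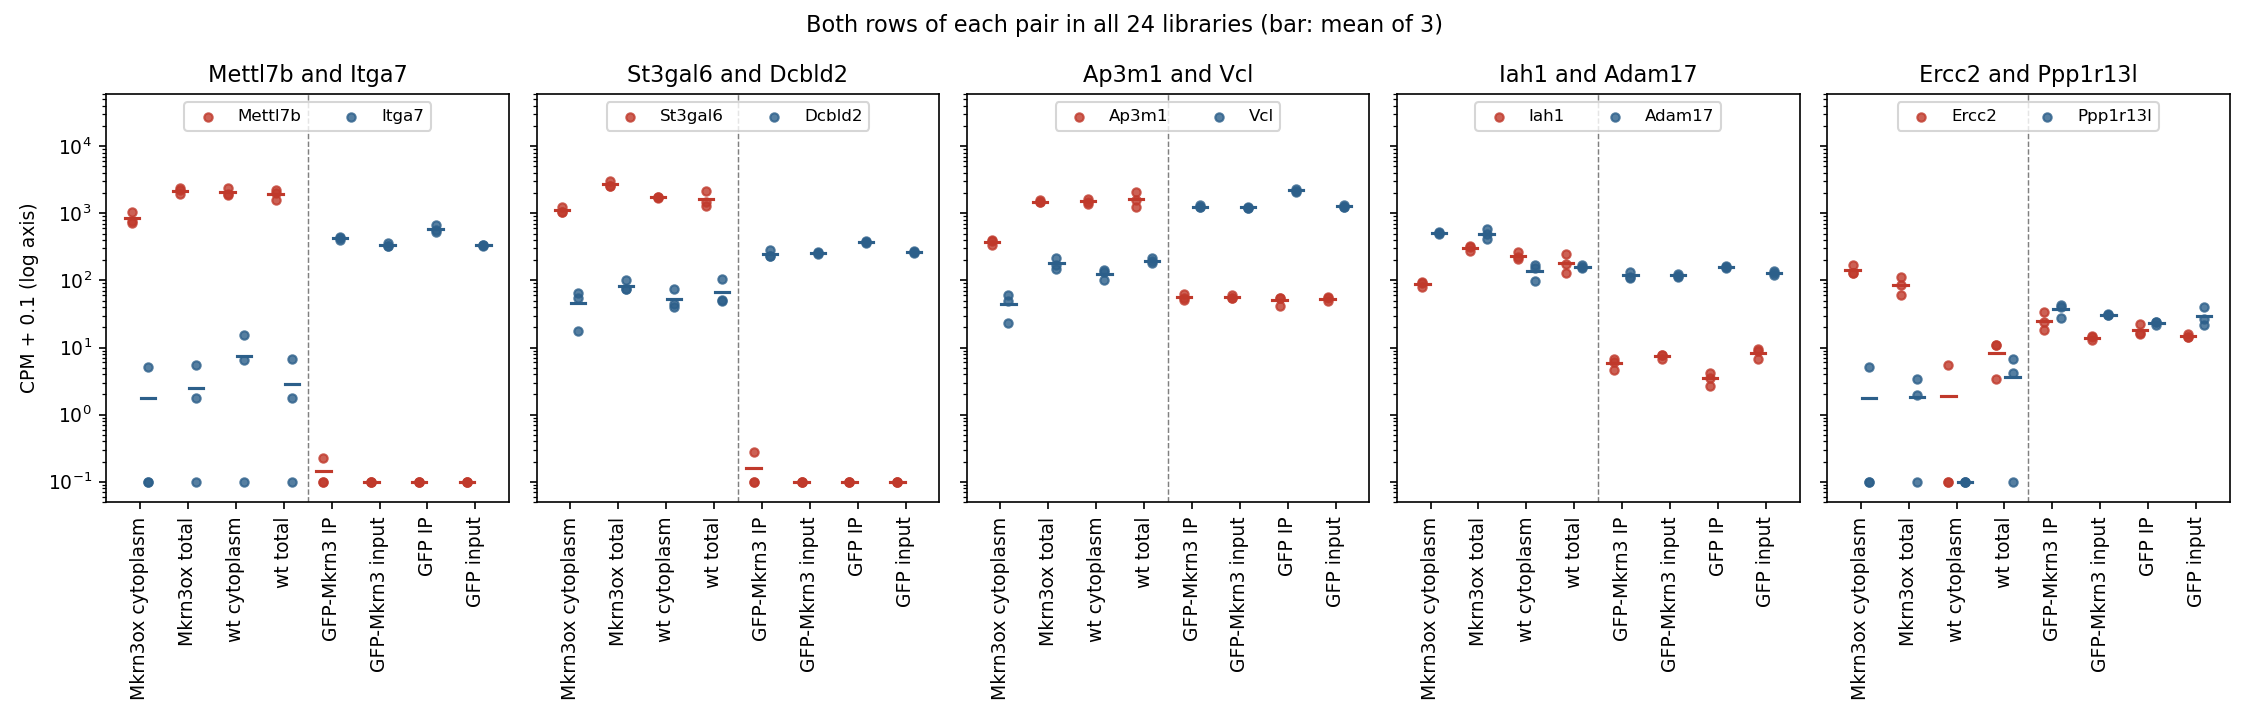
CPM + 0.1 on a log axis for both rows of each pair in the 24 libraries, by group, with points for libraries and a bar for the mean of 3; red is the first-named row and blue its partner, and the dashed line parts fractionation from RIP. Mettl7b, St3gal6 and Ap3m1 lie above their partners in every fractionation library and below them in every RIP library.

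An order in total RNA opposite to that in the RIP inputs was counted over all RefSeq gene pairs that overlap or lie within 5000 bases. A pair entered when the 2 rows differed at least 10-fold in the RIP inputs and had at least 20 counts together in the 6 total RNA libraries. Iah1 and Adam17 entered but were not reversed, with 863 and 1148 counts in total RNA and 381 and 6046 in RIP inputs. Ercc2 and Ppp1r13l, with 698 and 1462 counts in RIP inputs, differed less than 10-fold and did not enter. Member pairs that entered are counted in the shares below. Of 329 overlapping tail-to-tail pairs, 189 had the opposite order in total RNA, which is 57.5% (exact 95% interval 51.9 to 62.9). Of 254 overlapping head-to-head pairs 33 did, which is 13.0% (9.12 to 17.8), and of 21 that overlap on the same strand 1 did. Nested pairs on opposite strands gave 43 of 266, which is 16.2% (11.95 to 21.15). Among pairs with no overlap, the shares were 21.0% of 429 lying tail to tail (17.2 to 25.1), 14.1% of 370 lying head to head (10.7 to 18.0) and 15.3% of 541 on the same strand (12.4 to 18.7). A gene can stand in several pairs, so the pairs are not independent, and the categories without overlap were chosen after the data were seen. Overlapping pairs with a strand not known, the class of Mettl7b and Itga7, gave 122 of 304, which is 40.1% (34.6 to 45.9). The interval of the overlapping tail-to-tail class lay above those of the other classes listed, with the class of unknown strand the next highest.

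**Figure D2:**
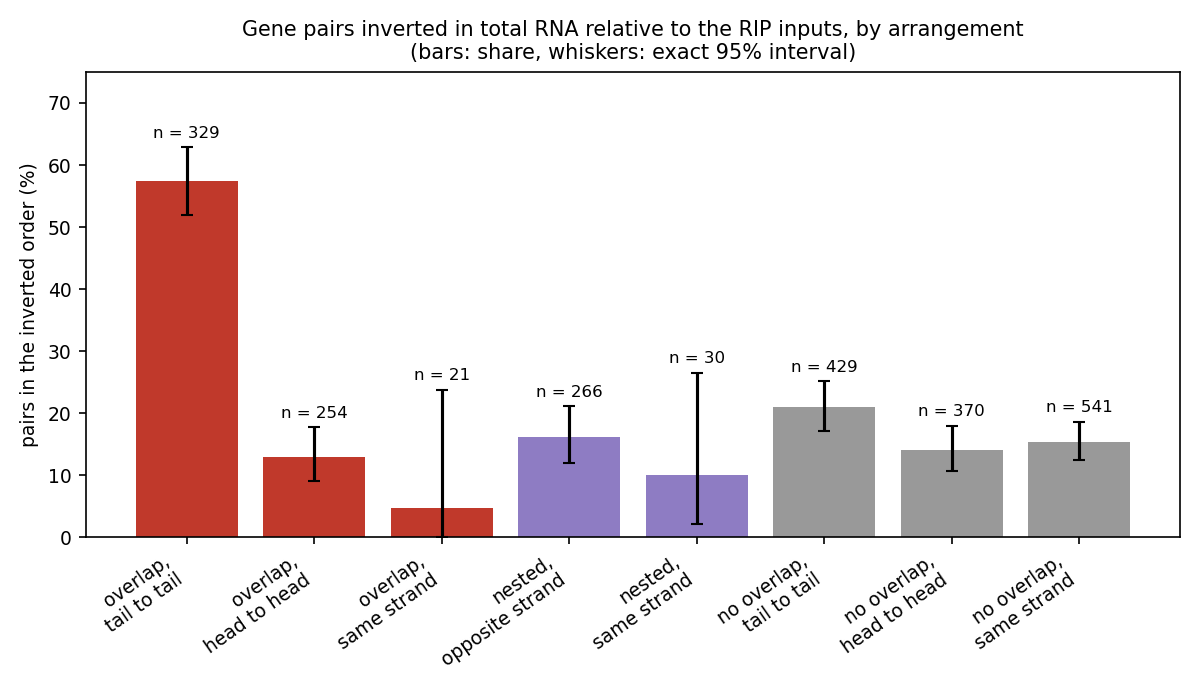
Share of gene pairs whose order in total RNA is opposite to that in the RIP inputs, where the rows differ at least 10-fold, by gene arrangement, with exact 95% intervals as whiskers and the number of pairs above each bar. The overlapping tail-to-tail pairs reach 57.5%, against 13.0% of overlapping head-to-head pairs. Classes with a strand not known are left out.

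Of 4 other pairs named for comparison, the order turned round in 2. Tsix had 5745 counts and Xist, its antisense partner that silences the X chromosome, had 457 over the 6 total RNA libraries, against 9 and 2917 over the 6 RIP inputs. Cd302 had 521 and Marchf7 had 136 in total RNA, against 149 and 4019 in RIP inputs. Igsf10 had 163 and Med12l had 560 counts in total RNA, against 981 and 1662 in RIP inputs. Gpr171 had 182 counts to the 560 of Med12l in total RNA, and 0 to 1662 in RIP inputs. Med12l was the higher row of both its pairs in both sets of libraries.

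Changes in the fractionation table were tested for 8 of the 10 rows, since Itga7 and Ppp1r13l did not pass the filter on low counts. All p-values are adjusted over the 5033 tested rows of that table (edgeR quasi-likelihood test, call at an adjusted p under 0.05). In Mkrn3ox against wt total RNA 3 of the 8 rows were called, all higher, beside 7.39% of all tested rows in either direction, 3.56% higher and 3.83% lower. These were St3gal6, Adam17 and Ercc2, and St3gal6 and Ercc2 are descriptions. In cytoplasm 7 of 8 were called, 2 higher (Adam17, Ercc2) and 5 lower, beside 10.5% of all rows, with 4.31% higher and 6.14% lower. Of these 7, Mettl7b, St3gal6, Ap3m1, Iah1 and Ercc2 were chosen on these libraries, and nothing is read from their share. Between cytoplasm and total RNA of Mkrn3ox cells, 5 of 8 were called, all lower, beside 4.53% of all rows, 0.775% higher and 3.76% lower. Of these 5, Mettl7b, St3gal6, Ap3m1 and Iah1 were chosen on these libraries and are descriptions, and nothing is read from their share. In wt cells 0 of 8 were called in the same comparison by edgeR or DESeq2, with 1 at an unadjusted p under 0.05, beside 3.78% of all rows, 0.616% higher and 3.16% lower. The line difference, the change of the cytoplasm-to-total ratio between Mkrn3ox and wt cells, was called for 4 of 8, all lower and all chosen by it, beside 0.219% of all rows, 0.0795% higher and 0.139% lower.

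Adam17 rose in Mkrn3ox cells in both fractions. It entered as the partner of Iah1, and its own changes were not used to choose it. Iah1 was chosen on these libraries, however, and the genes share 99 bases. Whether the reads of the 2 rows are separate was not tested, so the p-values of Adam17 may carry that choice. Its levels were 519, 491 and 506 CPM in Mkrn3ox cytoplasm, 415, 492 and 580 CPM in Mkrn3ox total RNA, 153, 168 and 98.4 CPM in wt cytoplasm and 168, 158 and 155 CPM in wt total RNA. Every Mkrn3ox library lay above every wt library. The log2 fold change was 1.85 (SE 0.229, adjusted p = 1.24e-05) in cytoplasm and 1.63 (SE 0.222, adjusted p = 4.02e-05) in total RNA. The ratio of cytoplasm to total RNA differed little between the lines, with a line difference of 0.22 (95% interval -0.43 to 0.87, adjusted p = 0.877).

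Iah1, the partner row, was at 94.8, 78.9 and 92.0 CPM in Mkrn3ox cytoplasm, 318, 273 and 321 CPM in Mkrn3ox total RNA, 220, 210 and 262 CPM in wt cytoplasm and 249, 128 and 177 CPM in wt total RNA. The cytoplasm values of Mkrn3ox cells lay below all other libraries. As a description, the log2 fold change of Mkrn3ox against wt was -1.38 (SE 0.272) in cytoplasm and 0.72 (SE 0.252) in total RNA, with a line difference of -2.10 (SE 0.371). With both rows of the pair summed into 1, the cytoplasm value was 0.68, the total RNA value 1.21 and the line difference -0.53. The sum thus had the direction of Adam17 in cytoplasm, opposite to that of Iah1.

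The Vcl and Ap3m1 rows were low in the same libraries. Vcl entered as the partner of Ap3m1, which was chosen on these libraries, and the genes share 571 bases. Whether the reads of the Vcl row are separate from those of Ap3m1 was not tested, so its p-values may carry that choice. Vcl had 49.9, 61.1 and 23.0 CPM in Mkrn3ox cytoplasm, 150, 219 and 168 CPM in Mkrn3ox total RNA, 145, 102 and 131 CPM in wt cytoplasm and 216, 180 and 194 CPM in wt total RNA. All 3 Mkrn3ox cytoplasm libraries were below the other 9. Vcl fell in Mkrn3ox against wt cytoplasm, with a log2 fold change of -1.51 (SE 0.346, adjusted p = 0.00649) and in cytoplasm against total RNA of Mkrn3ox cells, with one of -2.01 (SE 0.340, adjusted p = 0.00103). In wt cells the cytoplasm value was -0.64 relative to total RNA (95% interval -1.29 to 0.000684, adjusted p = 0.312), and the line difference of -1.37 (interval -2.32 to -0.42) had an adjusted p of 0.270. In total RNA the difference of Mkrn3ox from wt was -0.14 (interval -0.76 to 0.49, adjusted p = 0.870).

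Ap3m1 was at 407, 382 and 339 CPM in Mkrn3ox cytoplasm, 1570, 1455 and 1463 CPM in Mkrn3ox total RNA, 1656, 1360 and 1496 CPM in wt cytoplasm and 2056, 1252 and 1570 CPM in wt total RNA. As with Vcl, the Mkrn3ox cytoplasm libraries were the lowest. The description values are -2.001 (SE 0.183) for Mkrn3ox against wt cytoplasm, -0.12 (SE 0.172) for total RNA and -1.88 (SE 0.250) for the line difference. Over the 12 libraries, Pearson's r of log2(CPM + 1) between Ap3m1 and Vcl was 0.92, which ranked Vcl 7 among 5032 other tested rows. The group of each library is shared by both rows, and the 883 Vcl counts stand beside 7904 of Ap3m1, so this r is a description.

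Mettl7b had the same shape. It stood at 723, 1041 and 757 CPM in Mkrn3ox cytoplasm, 2232, 1928 and 2386 CPM in Mkrn3ox total RNA, 2419, 1953 and 1868 CPM in wt cytoplasm and 2211, 1594 and 2018 CPM in wt total RNA. The 3 Mkrn3ox cytoplasm libraries were the lowest, with description values of -1.31 (SE 0.179) for Mkrn3ox against wt cytoplasm, 0.17 (SE 0.173) for total RNA and -1.48 (SE 0.248) for the line difference. Itga7 had 0, 2 and 0 counts in Mkrn3ox cytoplasm, 3, 0 and 1 in Mkrn3ox total RNA, 6, 3 and 0 in wt cytoplasm and 0, 1 and 5 in wt total RNA. No change of the integrin row can be read from these counts.

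St3gal6 was at 1055, 1242 and 1037 CPM in Mkrn3ox cytoplasm, 3019, 2523 and 2573 CPM in Mkrn3ox total RNA, 1697, 1757 and 1728 CPM in wt cytoplasm and 2184, 1280 and 1483 CPM in wt total RNA. Mkrn3ox total RNA held the highest 3 values and Mkrn3ox cytoplasm the lowest 3. Its description values are -0.64 (SE 0.176) in cytoplasm, 0.71 (SE 0.174) in total RNA and -1.35 (SE 0.248) for the line difference. Dcbld2, its partner, had 64.9, 17.8 and 54.3 CPM in Mkrn3ox cytoplasm, 101, 73.7 and 74.8 CPM in Mkrn3ox total RNA, 75.03, 40.4 and 43.8 CPM in wt cytoplasm and 48.6, 104 and 50.9 CPM in wt total RNA. These groups overlapped, and no comparison of this row passed the test. The difference of Mkrn3ox from wt was -0.20 in cytoplasm (interval -1.20 to 0.79, adjusted p = 0.844; 0.15 when scaled by library size alone) and 0.29 in total RNA (interval -0.63 to 1.21, adjusted p = 0.805). Between St3gal6 and Dcbld2 r was 0.35, at rank 965 of 5032, so Dcbld2 did not track its neighbour as Vcl did, although the difference between these correlations was not tested.

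Ercc2 stood at 127, 168 and 128 CPM in Mkrn3ox cytoplasm, 85.9, 110 and 61.5 CPM in Mkrn3ox total RNA, 0, 0 and 5.47 CPM in wt cytoplasm and 10.8, 3.29 and 10.7 CPM in wt total RNA. Mkrn3ox and wt libraries did not overlap in either fraction. The values between the lines are descriptions, since the row was chosen for its change in these lines. In total RNA the log2 fold change of Mkrn3ox against wt was 3.33 (SE 0.536). In cytoplasm 178 counts in Mkrn3ox stood against 2 in wt, a ratio of 108 by library totals with a counting interval of 29.5 to 901. On the TMM scale the fit gave a smaller log2 fold change of 6.21 (SE 0.718), which is 74.3-fold. Ppp1r13l had 2, 0 and 0 counts in Mkrn3ox cytoplasm, 1, 0 and 2 in Mkrn3ox total RNA, 0 in each wt cytoplasm library and 0, 4 and 3 in wt total RNA.

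**Figure D3:**
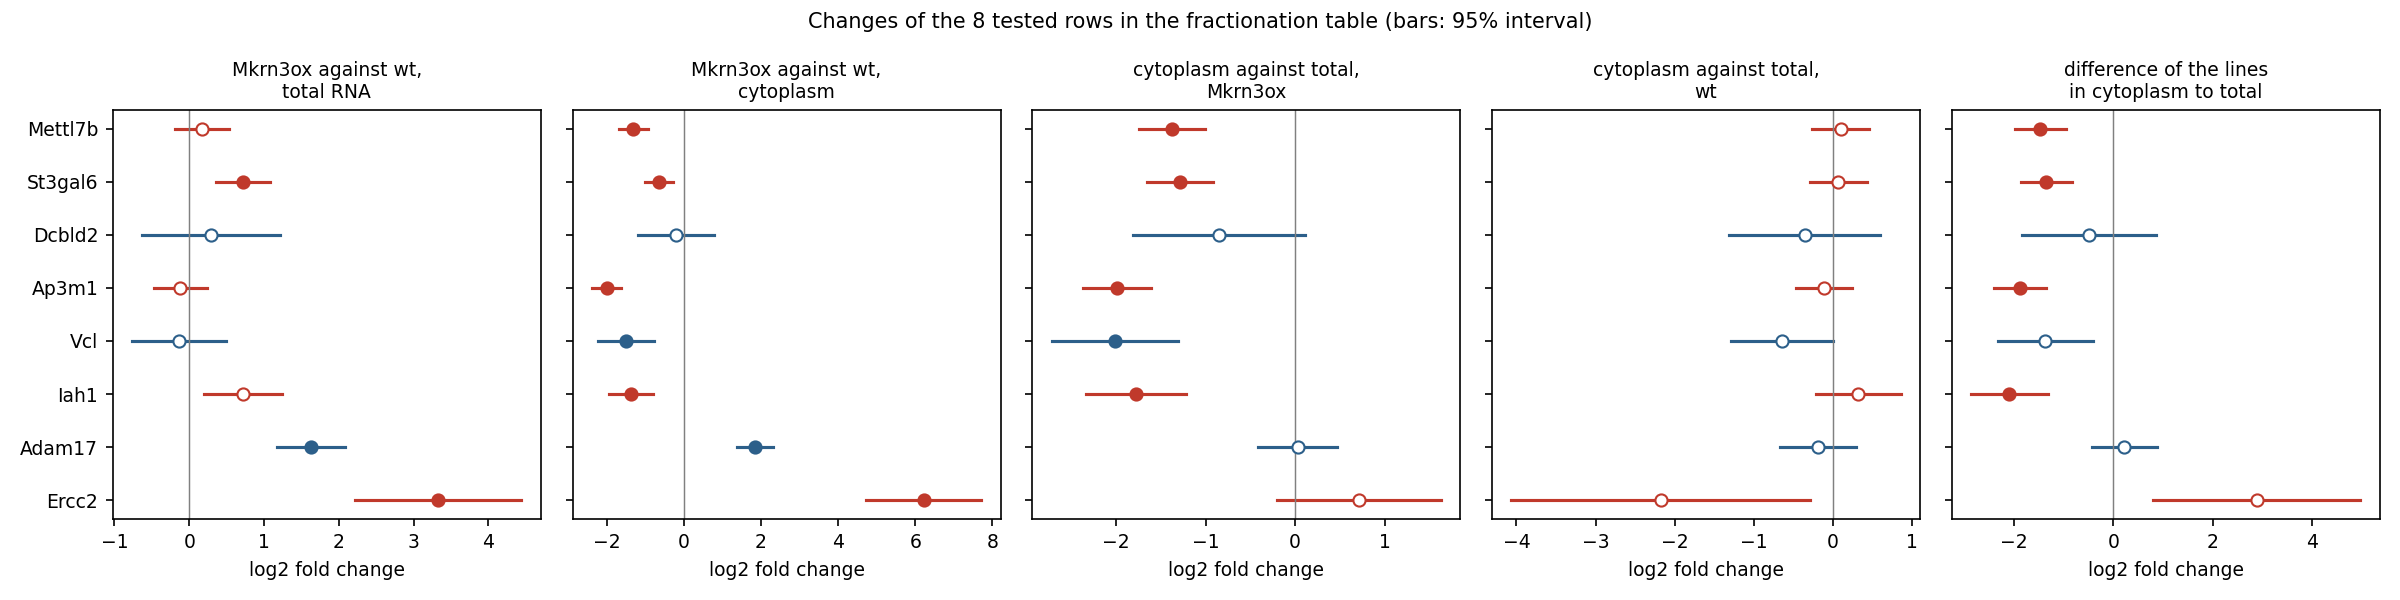
Log2 fold changes of the 8 tested rows in the fractionation table with 95% intervals, 1 panel per comparison; red is the first-named row of a pair and blue its partner, filled points have an adjusted p under 0.05, and for Mettl7b, St3gal6, Ap3m1, Iah1 and Ercc2 the values are descriptions. In cytoplasm Adam17 lies at 1.85 and Iah1 at -1.38, while Vcl and Ap3m1 lie at -1.51 and -2.001.

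For the RIP counts, 8 of the 10 rows passed the filter, and Mettl7b and St3gal6, with 2 counts each, did not; 6 rows were tested in both tables. Here p-values are adjusted over 13052 rows by the same edgeR test. Between GFP-Mkrn3 and GFP inputs 0 of the 8 rows were called by edgeR or DESeq2 and 0 had an unadjusted p under 0.05, beside 0.0153% of all rows called, 0.00766% in each direction. IPs against inputs were called for 2 of 8 rows with GFP-Mkrn3, both higher, beside 26.7% of all rows, 13.9% higher and 12.8% lower. With GFP they were called for 5 of 8, 4 higher and 1 lower, beside 50.3% of all rows, 25.1% higher and 25.2% lower. The difference between the pull-downs, here called enrichment beyond GFP, was called for 4 of 8, 1 higher and 3 lower, beside 24.3% of all rows, 13.2% higher and 11.1% lower. Without GFP-Mkrn3 IP replicate 3, the last of these counts was 7 of 8, beside 4359 of 13331 rows called, 2295 higher and 2064 lower.

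The adhesion rows Itga7 and Vcl rose in the GFP IPs. Vcl had 1223, 1233 and 1328 CPM in GFP-Mkrn3 IPs, 1232, 1219 and 1213 CPM in GFP-Mkrn3 inputs, 2324, 2163 and 2107 CPM in GFP IPs and 1222, 1259 and 1323 CPM in GFP inputs. The 3 GFP IPs stood above the other 9 libraries. The IP-to-input change of Vcl was 0.05 with GFP-Mkrn3 (interval -0.11 to 0.20, adjusted p = 0.677) and 0.79 with GFP (SE 0.074, adjusted p = 8.05e-08), so the enrichment beyond GFP was -0.75 (SE 0.104, adjusted p = 0.000105).

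Itga7 had 428, 449 and 406 CPM in GFP-Mkrn3 IPs, 330, 330 and 355 CPM in GFP-Mkrn3 inputs, 660, 555 and 531 CPM in GFP IPs and 325, 336 and 341 CPM in GFP inputs. Both pull-downs lay above their inputs, GFP more so. The changes were 0.34 with GFP-Mkrn3 (SE 0.086, adjusted p = 0.00685) and 0.80 with GFP (SE 0.086, adjusted p = 4.53e-07), and the difference was -0.46 (SE 0.121, adjusted p = 0.00974). With scaling by library size alone this difference was -0.27 and lost its call (adjusted p = 0.104). Dcbld2 followed with 233, 229 and 279 CPM in GFP-Mkrn3 IPs, 264, 256 and 249 CPM in GFP-Mkrn3 inputs, 373, 389 and 361 CPM in GFP IPs and 275, 255 and 263 CPM in GFP inputs. Its change with GFP was 0.50 (SE 0.084, adjusted p = 7.08e-05) and with GFP-Mkrn3 -0.05 (interval -0.23 to 0.12, adjusted p = 0.666). The difference was -0.55 (SE 0.118, adjusted p = 0.00250).

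Iah1 was low in RIP. It had 4.55, 6.72 and 5.95 CPM in GFP-Mkrn3 IPs, 7.62, 7.51 and 6.67 CPM in GFP-Mkrn3 inputs, 2.57, 3.43 and 4.07 CPM in GFP IPs and 6.60, 8.67 and 9.38 CPM in GFP inputs. The GFP IPs were the lowest 3. Iah1 fell in GFP IPs, with a log2 fold change of -1.31 (SE 0.254, adjusted p = 0.000301), and the value with GFP-Mkrn3 was -0.33 (interval -0.81 to 0.15, adjusted p = 0.307). The enrichment beyond GFP was 0.98 (SE 0.344, adjusted p = 0.0443), and this call was lost when any of 8 of the 12 libraries was left out (0.81 to 1.12 over all 12, adjusted p up to 0.121). The same call was lost with no filter on low counts and with a replicate block within plasmid. Adam17 had 111, 110 and 135 CPM in GFP-Mkrn3 IPs, 126, 117 and 114 CPM in GFP-Mkrn3 inputs, 166, 158 and 155 CPM in GFP IPs and 140, 119 and 129 CPM in GFP inputs. It rose with GFP by 0.30 (SE 0.095, adjusted p = 0.0123), and its enrichment beyond GFP of -0.31 (interval -0.59 to -0.03) did not pass (adjusted p = 0.104). The rise lost its call without GFP input replicate 2 (0.24, adjusted p = 0.0708) or GFP IP replicate 1 (0.27, adjusted p = 0.0532).

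With the rows of this pair summed, the GFP value was 0.25 (adjusted p = 0.0337) and the enrichment beyond GFP -0.27 (adjusted p = 0.149), close to Adam17 and opposite in sign to Iah1. Ap3m1 stayed between 41.4 and 62.9 CPM in all 12 RIP libraries. Its enrichment beyond GFP was 0.08 (interval -0.28 to 0.45, adjusted p = 0.764), and the sum with Vcl gave -0.72 (adjusted p = 0.000122), the value of the larger row.

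Ercc2 had 24.0, 33.2 and 18.3 CPM in GFP-Mkrn3 IPs, 12.7, 14.5 and 14.0 CPM in GFP-Mkrn3 inputs, 22.2, 16.4 and 15.9 CPM in GFP IPs and 14.4, 15.6 and 14.4 CPM in GFP inputs. Each IP lay above all inputs. Ercc2 rose in GFP-Mkrn3 IPs by 0.88 (SE 0.191, adjusted p = 0.00244). With GFP the change was 0.30 (interval -0.11 to 0.72, adjusted p = 0.219), and the difference of 0.58 (interval 0.01 to 1.16) did not pass (adjusted p = 0.133). Ppp1r13l had 43.3, 39.6 and 27.5 CPM in GFP-Mkrn3 IPs, 31.5, 30.3 and 29.9 CPM in GFP-Mkrn3 inputs, 21.7, 23.7 and 23.9 CPM in GFP IPs and 26.7, 39.4 and 21.7 CPM in GFP inputs. These groups overlapped with each other in part, and its enrichment beyond GFP of 0.62 (interval 0.06 to 1.17) did not pass (adjusted p = 0.0972).

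**Figure D4:**
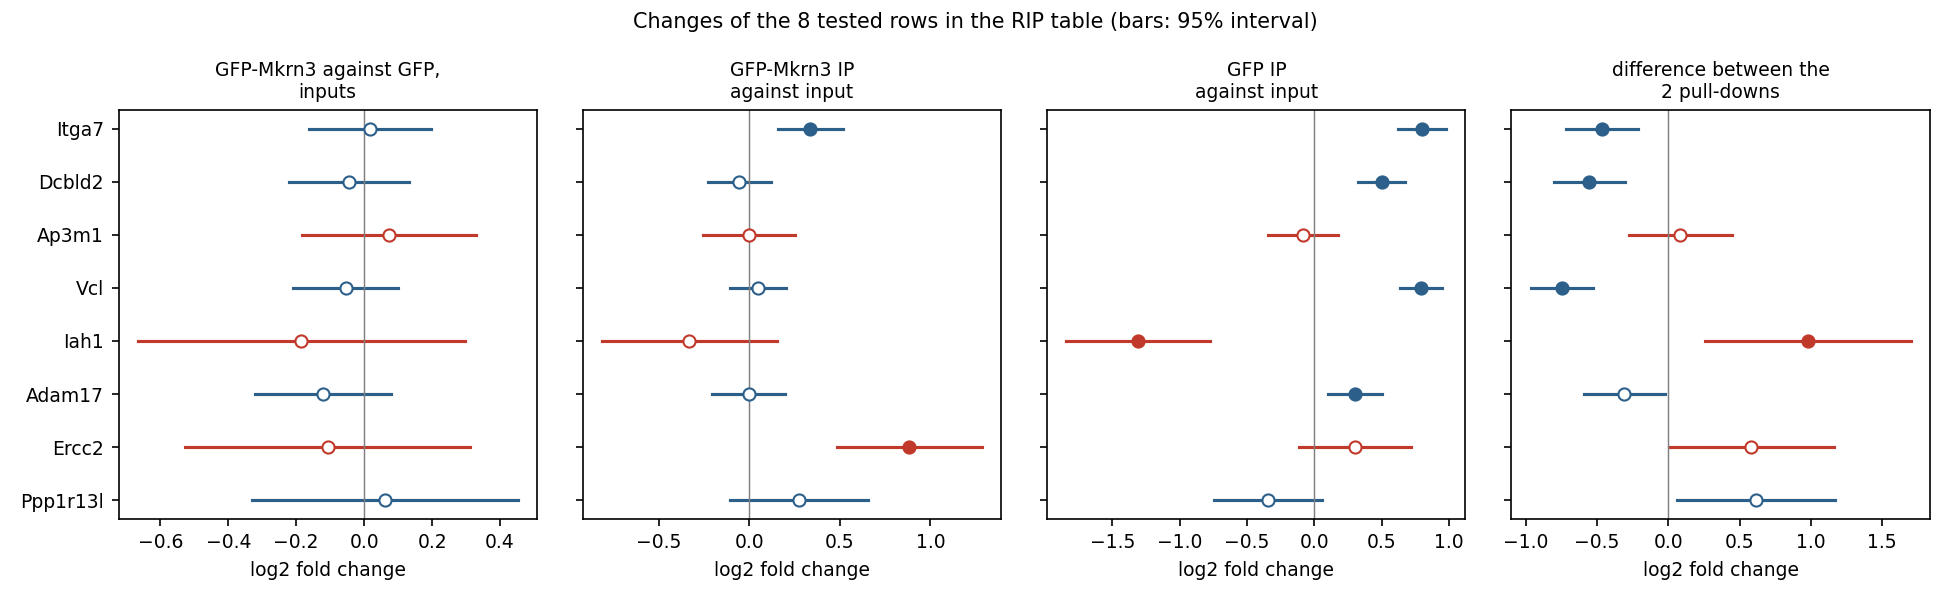
Log2 fold changes of the 8 tested rows in the RIP table with 95% intervals, 1 panel per comparison, each with its own scale; red is the first-named row and blue its partner, and filled points have an adjusted p under 0.05. GFP IPs lie above inputs for Itga7, Dcbld2, Vcl and Adam17 and below for Iah1 at -1.31, and the difference between pull-downs is -0.75 for Vcl.

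Other genes of the same pathways were followed from 6 lists. Of all tested rows, 3.56% were higher and 3.83% lower in Mkrn3ox against wt total RNA, and 4.31% and 6.14% in cytoplasm. In Mkrn3ox against wt total RNA, 2 of 12 tested integrins and vinculin partners fell: Sorbs2, an actin-linked adaptor (log2 fold change -3.35), and Itgb1, the integrin beta 1 chain (-0.86). Adam10, a related membrane sheddase, fell (-0.90) and was the 1 gene called of 3 tested in the list of ADAM17 and its regulators. In cytoplasm 3 of the 12 adhesion genes fell (Sorbs2 -4.49, Itgb1 -1.82, Itgav -1.42), Adam10 fell (-1.86), and Ppp1r13b, an ASPP family member, fell (-2.02) as the 1 tested gene of its list. The median over the 12 adhesion genes was -0.23 in total RNA and -0.49 in cytoplasm, beside -0.01 and 0.03 over all rows. No tested gene of AP-3 (2), TFIIH (2) or the alpha-2,3-sialyltransferases (1) was called between the lines. Over all 21 tested list genes, 4 in total RNA and 6 in cytoplasm had an unadjusted p under 0.05.

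Within Mkrn3ox cells, cytoplasm was lower than total RNA for Itgb1 (-1.04) and Adam10 (-1.42), and within wt cells it was higher for Ap3s2, an AP-3 subunit (2.70). No gene of the 6 lists was called by edgeR for the line difference, where 3 of 21 had an unadjusted p under 0.05, or between the inputs, where 0 of 45 did. In GFP-Mkrn3 IPs 4 of 18 adhesion genes rose and 1 fell, and 4 of 9 TFIIH genes fell, among them Gtf2h5 (-0.76). Of all tested rows 13.9% rose and 12.8% fell there. In GFP IPs 10 of 18 adhesion genes rose and 2 fell, beside 25.1% of all rows higher and 25.2% lower. Among those that rose in GFP IPs were Ctnna1 at 0.88, Tln1 at 0.87, Itgb1 at 0.82 and Itgav at 0.63. Of the markers of fibroblasts, endothelium and immune cells, 4 of 5 tested rose there too, and their part in this was not tested. There 4 of 9 TFIIH genes fell, among them Gtf2h5 (-1.53). Beyond GFP 7 of 18 adhesion genes were lower, beside 11.1% of all rows, and 1 was higher, beside 13.2%. Itgb1 (-0.79) and Itgav (-0.70) were among the lower adhesion genes, and Zyx was the higher one (0.84). The median of this list was -0.22, beside 0.04 over all rows.

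The smaller lists had few calls. Their counts stand beside the shares of all rows given above for each RIP comparison. Of 5 tested AP-3 genes, Ap3b1 rose in GFP IPs (0.63) and was lower beyond GFP (-0.74), and Ap3s1 fell (-1.16) and was higher beyond GFP (0.84). Beyond GFP 1 of 9 TFIIH genes was higher (Gtf2h5, 0.77) and 1 lower (Ercc3, -0.43). Of 5 ADAM17 regulators, 1 rose and 2 fell in GFP-Mkrn3 IPs, 2 rose and 1 fell in GFP IPs, and Adam10 was lower beyond GFP (-0.76). Of 5 sialyltransferases, 1 fell in GFP-Mkrn3 IPs and 3 in GFP IPs, and St3gal3 was higher beyond GFP (0.91). Of 3 ASPP and p53 genes, Trp53 rose in GFP-Mkrn3 IPs (0.43), and Trp53bp2 rose in GFP IPs (0.47) and was lower beyond GFP (-0.64). These lists share a cell line and libraries with the members, and nothing particular to a list is read from the counts.

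For the row of each pair with more counts, the tested rows most like it were found by Pearson's r of log2(CPM + 1) over the 12 libraries of the experiment. In fractionation Mettl7b and Ap3m1 were most like each other (r = 0.96), St3gal6 was most like Iqck (0.94) and Iah1 (0.92), Adam17 was most like Gm45774 (0.98) and Cdhr1 (0.97), and Ercc2 was most like Adcy3 and 1110002L01Rik (0.94 each). Against these, r was -0.26 between Adam17 and Iah1. In RIP Vcl was most like Cemip (0.99) and Emc1 (0.99), Itga7 was most like Arfgef2 and Myo7a (0.99 each), Dcbld2 was most like Nrp2 (0.99) and Ipo9 (0.98), Adam17 was most like Rtn4ip1 and Zfp106 (0.97 each), and Ppp1r13l was most like Cpped1 (0.96) and Tfb1m (0.95). In RIP r was -0.49 between Vcl and Ap3m1, -0.69 between Adam17 and Iah1, and 0.39 between Ppp1r13l and Ercc2. All these values rest on libraries that fall into 4 groups and share their depth and composition.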

How the data were processed

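RNA was measured by CEL-seq2 in 24 libraries, 12 per experiment. Per the submitters' processing notes the authors used cutadapt, STAR, HTSeq and the mm10 build. The sources used here give no versions, gene annotation, strand setting or handling of molecular identifiers. The authors deposited raw counts per gene, as whole numbers in 57010 rows of each table.

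Each experiment was fitted with edgeR 4.0.16 (R 4.3.3): TMM scaling, filterByExpr by group, no covariates, the two-sided quasi-likelihood F test over all rows and Benjamini-Hochberg adjustment, with 0.05 as the threshold of a call. The fits covered 5033 and 13052 rows, with a common biological coefficient of variation of 0.384 in fractionation and 0.115 in RIP. The code was tested on simulated data. The members, the pathway lists and the marker lists were chosen with earlier results of these data known. Genes named are the 10 members, 4 comparison pairs, up to 4 called genes of each list per comparison by smallest adjusted p, and the 2 rows most like each larger row.

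Overlap came from RefSeq positions of GRCm38 (37379 genes matched to a row, 19953 with a strand), and strand from the promoter table. Pair folds used CPM + 0.1. A count of 0 was limited at 3 counts, and shares carry exact 95% intervals. Figures and pair counts used Python 3.11.15, numpy 2.4.6, pandas 2.3.3, scipy 1.17.1 and matplotlib 3.10.9. Alternatives were other scalings (DESeq2 1.42.0 size factors, library size), other filters, the DESeq2 test, replicate blocks, pair-summed rows and leaving out each library.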

Additional observations from a re-analysis of the deposited data

Results flagged for a closer look

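The difference between the GFP-Mkrn3 and GFP pull-downs, each relative to its input, passed its own test for 4 of the 8 rows tested in RIP, where 24.3% of all rows did. It was -0.46 for Itga7, -0.55 for Dcbld2, -0.75 for Vcl and 0.98 for Iah1 on the log2 scale. Itga7, Dcbld2 and Vcl were higher in GFP IPs than in their inputs, and Iah1 was lower there. The Iah1 call was lost when any of 8 of the 12 libraries was left out (adjusted p up to 0.121). It was also lost with no filter on low counts (adjusted p = 0.0711) and with the replicate block within plasmid. The Itga7 call was lost with scaling by library size alone (adjusted p = 0.104).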

How the results depend on the processing

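Over the fits of single rows, the calls named in the text for Adam17 between the lines and for Vcl in Mkrn3ox cytoplasm held in each alternative run. With library size alone as scaling, the median of all rows was 0.38 for Mkrn3ox against wt cytoplasm, 0.27 for the line difference, -0.22 for wt cytoplasm against total RNA, 0.23 beyond GFP, 0.11 for GFP-Mkrn3 IPs and -0.11 for GFP IPs, and the split of calls moved: 507 higher and 189 lower against 217 and 309 as reported in cytoplasm, 252 and 163 against 179 and 193 in total RNA, 2845 and 603 against 1724 and 1454 beyond GFP, 2599 and 1263 against 1812 and 1675 in GFP-Mkrn3 IPs, 2554 and 3952 against 3274 and 3291 in GFP IPs, and 8 and 6 against 4 and 7 for the line difference. Under that scaling Itga7 beyond GFP (-0.27, adjusted p = 0.104) and Adam17 in GFP IPs (0.19, adjusted p = 0.0781) lost their calls, and Dcbld2 turned to 0.15 in Mkrn3ox against wt cytoplasm and, in GFP-Mkrn3 IPs, Dcbld2 to 0.028, Ap3m1 to 0.084 and Adam17 to 0.078. Iah1 beyond GFP lost its call with no filter (1.00, adjusted p = 0.0711). With no filter Adam17 turned to -0.061 in cytoplasm against total RNA of Mkrn3ox cells, and at a mean of at least 20 counts Ap3m1 turned to 0.0035 and Adam17 to 0.0014 in GFP-Mkrn3 IPs. The causes were not tested.

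Summing both rows of a pair replaces a row by its pair. It gave 0.68 in place of the Iah1 value in Mkrn3ox cytoplasm, and in place of Adam17 -0.43 for cytoplasm against total RNA in Mkrn3ox cells, 0.10 in wt cells and -0.53 for the line difference. It gave 0.053 for Dcbld2 in wt cytoplasm against total RNA, -0.049 for Ap3m1 and 0.0070 for Ercc2 between the inputs, 0.044 for Ap3m1 in GFP-Mkrn3 IPs, and in GFP IPs 0.77 for Ap3m1, 0.25 for Iah1 and -0.094 for Ercc2. Beyond GFP it gave -0.72 for Ap3m1 and -0.27 for Iah1.

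Leaving out 1 library at a time gave 3 to 7 called members beyond GFP, with the 7 reached without GFP-Mkrn3 IP replicate 3. That run called 4359 of 13331 rows, against 3178 of 13052 as reported. Among the rows and comparisons that were tested, the ranges that crossed 0 belong to values that did not pass: -0.53 to 0.16 for Dcbld2 in Mkrn3ox against wt cytoplasm, -0.69 to 0.082 for Dcbld2 and -0.35 to 0.0064 for Adam17 in wt cytoplasm against total RNA, -0.099 to 0.17 for Adam17 in the same comparison in Mkrn3ox cells, -0.018 to 0.036 for Itga7 and -0.12 to 0.34 for Ppp1r13l between inputs, -0.15 to 0.032 for Ap3m1 in GFP IPs, -0.044 to 0.15 for Ap3m1 beyond GFP, and -0.094 to 0.064 for Ap3m1 and -0.10 to 0.046 for Adam17 in GFP-Mkrn3 IPs.

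Over all rows, 11 were called for the line difference, against 43 with no filter, 50 with DESeq2 and 8 to 35 with 1 library left out. For the inputs 2 were called, against 34 with no filter, 6 with DESeq2 and 1 to 3 with 1 library left out. For Mkrn3ox against wt total RNA the count of 372 became 234 to 306, and for cytoplasm against total RNA of Mkrn3ox cells the count of 228 became 125 to 153 with 1 library left out. The labels do not say whether same-numbered libraries are paired, and an input and an IP can come from the same lysate. Deviations from the group mean correlated between same-numbered libraries at -0.05 to 0.03 in fractionation and -0.19 to 0.32 in RIP. With 3 libraries per group this cannot exclude pairing. With the replicate block within plasmid the Iah1 value beyond GFP was 0.95 (adjusted p = 0.0691). The other calls of members kept their side of the threshold with either block.

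The share of opposite order depended on the minimum of counts. At 100 counts it was 64.9% for overlapping tail-to-tail pairs, 18.7% for overlapping head-to-head pairs, and 26.6%, 20.6% and 23.1% for pairs without overlap lying tail to tail, head to head and on the same strand, and at a 30-fold difference it was 9.32% for head-to-head pairs without overlap. For overlapping pairs with a strand not known the share at 100 counts was 53.7% (46.0 to 61.2). This interval overlapped that of the overlapping tail-to-tail pairs at 100 counts (58.4 to 70.9). The counts of Itga7 and Ppp1r13l in fractionation and of Mettl7b and St3gal6 in RIP are too few to read a change from.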

Other observations

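The rows found most like the larger row of each pair in fractionation were looked up among their neighbours, a step chosen after the data were seen. Of these 10 rows, 8 overlapped a row with more counts in the RIP inputs, beside 15.5% of 4662 tested rows with a position. Among the 8 were the members Mettl7b, Ap3m1 and Iah1, which were chosen as parts of such pairs. Their overlap was fixed in advance, so nothing is read from the share. Cdhr1 overlapped no such row, and Gm45774 had no position. Examples from the other rows follow. Iqck, which was most like St3gal6, had 1437 counts over the 6 total RNA libraries and 139 over the 6 RIP inputs, against 55 and 5884 for Gprc5b, which overlaps it. Nudt5, which was like Ap3m1, had 3178 and 1422 counts against 28 and 4050 for Cdc123. Adcy3, which was like Ercc2, had 343 and 31 against 16 and 869 for Cenpo. In RIP the same lookup found such a neighbour for 1 of 10 rows, beside 9.73% of 11949 tested rows with a position. What the reads of the rows named here come from was not tested.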
